A study of Mus musculus with 16 samples.

Results

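The regions described here are those where monomethylated histone H3 lysine 4 (H3K4me1) was higher in jejunal epithelial cells of wild-type mice than in cells lacking the corepressor NCoR1. All 2774 regions analysed here of the list of the wild-type (WT) library over the knockout (KO) library were taken, of 23511 regions in 10 distinct lists. Chromosome 18 was not analysed here. They were joined by position to the deposited gene annotation. The KO list holds the same 2774 regions with the same folds, so no list of KO-higher H3K4me1 regions was used here and only one direction can be described. The cells were intestinal epithelial cells of the jejunum, isolated from C57BL/6 neonates at postnatal day 12. WT mice carried the genotype F/FUN, and KO mice carried the intestinal NCoR1 deletion written ΔIECUN. What UN stands for, the Cre driver, the number of mice and whether mice were pooled are not given in the sources used here. Chromatin was immunoprecipitated with an antibody to H3K4me1 and sequenced, with 1 library per genotype.

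NCoR1 is a corepressor that sits on unliganded nuclear receptors and other factors and brings histone deacetylase activity to them. H3K4me1 is laid down by the methyltransferases KMT2C and KMT2D at enhancers, both active and primed, and on the shoulders of active promoters. Acetylation of H3K27 and H3K9 marks the active ones among these elements, while trimethylation of H3K4 marks promoters. In the suckling intestine the jejunal epithelium absorbs milk fat and takes up macromolecules by endocytosis, before it changes to the adult enterocyte programme at weaning.

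The WT library held 33119960 tags and the KO library 39155874, of which 27718038 and 32444815 were left after duplicates were removed. Each region had a WT level, the number of tags piled up at its summit. The KO level is what the peak caller set against it, an average of KO tags scaled by 0.854 to the WT depth. The lowest KO level, 2.35, was close to the genome-wide KO level of 2.34, so the lowest values need not be local tags. The fold is the authors' value, the WT level plus 1 over the KO level plus 1. With 1 library per genotype no difference could be set against replicate error, so the values describe these 2 libraries, and the 95% intervals cover counting error only. No H3K4me1 region lay within 10 kb of Ncor1 itself (chr11:62129928-62272043), so this list does not check the genotype labels.

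The regions with the highest fold in each of the main annotation classes are shown first, because they carry the widest gap between the libraries. A region in Zfpm2 is added as the highest-fold region holding the 8-letter HNF4 element, a region in Sh3glb1 as the highest-fold region with more H3K27ac in KO, and a region near Tmem181b-ps as the one that overlapped the most other lists. The Zfpm2 and Sh3glb1 sequences were added after values had been seen. Each is the 200 bases around the summit on the plus strand of mm9, with matches to 6 motifs on either strand in capitals. The letters searched for were AGGGGGC for the CTCF core, GGGNGTG for Krüppel-like factors (KLF), CAGGTG for the E-box and AGGTCA for nuclear receptors. For HNF4 they were CAAAGTCC and, in a relaxed form, CAAAGNNCA. They lie in intron 12 of Phldb2 (chr16:45765974-45766173), between genes near Mir6349 (chr1:39236692-39236891) and in exon 54 of Reln (chr5:21419021-21419220). The others lie before Gm10619 (chr7:80961735-80961934), in exon 6 of Zfpm2 (chr15:40927568-40927767), in intron 1 of Sh3glb1 (chr3:144380908-144381107) and between genes near Tmem181b-ps (chr17:6489481-6489680).
Phldb2 intron: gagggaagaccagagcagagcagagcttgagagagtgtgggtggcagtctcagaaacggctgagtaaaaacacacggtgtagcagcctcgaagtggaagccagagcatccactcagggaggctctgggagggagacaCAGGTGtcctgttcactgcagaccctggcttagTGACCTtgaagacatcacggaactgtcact
near Mir6349: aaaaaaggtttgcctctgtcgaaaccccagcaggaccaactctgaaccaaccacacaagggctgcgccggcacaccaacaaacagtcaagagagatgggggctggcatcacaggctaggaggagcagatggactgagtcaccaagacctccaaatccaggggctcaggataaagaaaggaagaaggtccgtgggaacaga
Reln exon: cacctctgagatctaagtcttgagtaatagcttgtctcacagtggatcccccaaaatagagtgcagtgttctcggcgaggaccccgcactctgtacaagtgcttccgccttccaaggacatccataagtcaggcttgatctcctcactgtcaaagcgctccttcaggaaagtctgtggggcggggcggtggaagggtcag
Gm10619 promoter: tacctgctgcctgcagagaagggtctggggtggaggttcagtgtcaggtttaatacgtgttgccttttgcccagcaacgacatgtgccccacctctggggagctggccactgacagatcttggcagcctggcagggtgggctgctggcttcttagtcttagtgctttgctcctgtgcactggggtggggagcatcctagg
Zfpm2 exon: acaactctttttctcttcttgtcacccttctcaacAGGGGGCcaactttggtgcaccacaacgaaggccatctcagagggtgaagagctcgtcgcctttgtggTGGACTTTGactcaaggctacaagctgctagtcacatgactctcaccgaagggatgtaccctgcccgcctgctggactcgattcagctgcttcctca
Sh3glb1 intron: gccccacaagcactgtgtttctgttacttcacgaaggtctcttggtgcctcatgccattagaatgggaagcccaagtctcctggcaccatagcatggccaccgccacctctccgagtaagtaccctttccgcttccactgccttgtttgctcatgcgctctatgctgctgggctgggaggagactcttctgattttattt
near Tmem181b-ps: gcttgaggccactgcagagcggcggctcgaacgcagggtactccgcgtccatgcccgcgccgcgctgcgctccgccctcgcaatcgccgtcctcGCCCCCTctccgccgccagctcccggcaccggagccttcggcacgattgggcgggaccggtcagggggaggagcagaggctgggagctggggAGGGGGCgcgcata
The Phldb2 window held 1 E-box and 1 nuclear receptor site, and the Zfpm2 window held a CTCF match and an HNF4 match that fits both HNF4 forms. The Tmem181b-ps window held 2 CTCF matches. The other windows held none of the 6 motifs.

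H3K4me1 was lower in KO at many narrow sites of modest height. The median WT level was 37 tags (range 10 to 279) and the median KO level 11.1 (2.35 to 182), with a median fold of 2.94 (1.43 to 8.98). Of the 2774 regions, 591 (21.3%) had a fold of at least 4 and 54 (1.95%) of at least 6, while 293 (10.6%) were under 2. The median width was 184 bp and the widest region 1158 bp. The narrowest was 158 bp, equal to the fragment length the caller used, so most widths lay near that value. The fold fell with the WT level. In the 711 regions with a WT level of 10 to 24 tags the median fold was 3.92. It was 3.20 at 25 to 37 tags, 2.64 at 38 to 53 and 2.22 at 54 to 279. A weak site needs a larger fold to pass the caller's limit on the q-value, so this order is partly built into the list.

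**Figure D1:**
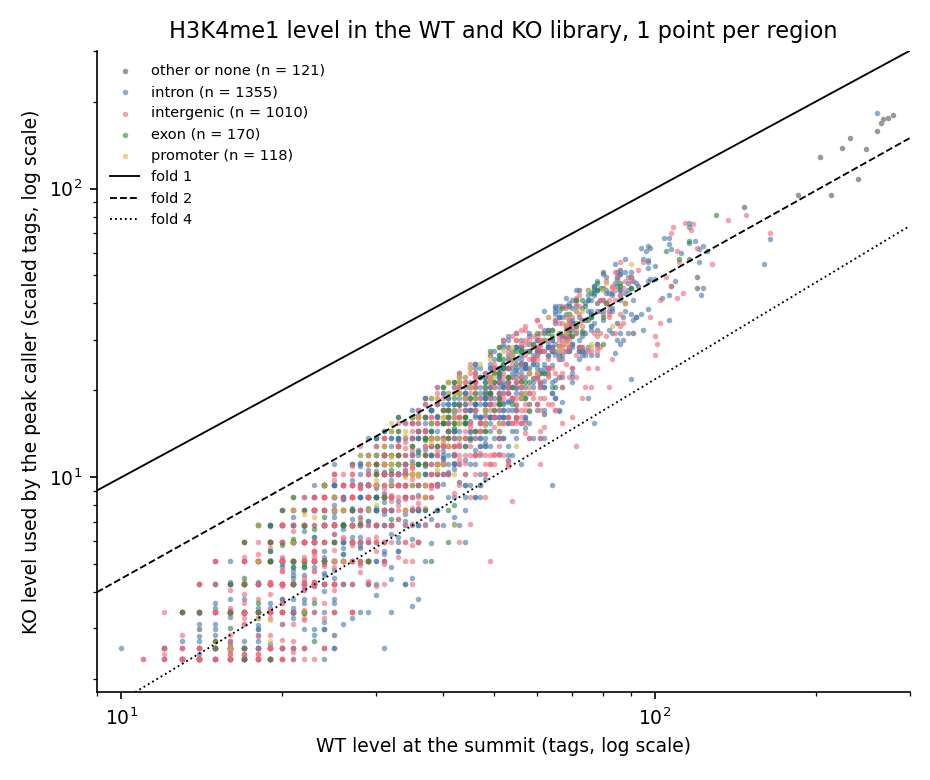
WT level (tags at the summit, log scale, x axis) against KO level (scaled tags, log scale, y axis) for each of the 2774 regions, coloured by annotation class, with lines at folds of 1, 2 and 4. All points lie below the line of fold 1, and regions of high WT level lie nearer to the line of fold 2, with the 17 unannotated regions of the sequence named UGT1A among the highest.

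The regions at the edge of the list show how it was cut. The lowest listed −log10 q was 1.30, held by regions at Rbm24, Map9, Rcan2 and Cdh4. At Rbm24, an RNA-binding protein gene, the WT level was 18 and the KO level 6.83, a fold of 2.43. The lowest fold was 1.43, in an intron of Sfi1 (named for Pisd-ps3), with 260 tags in WT and 182 in KO. No values outside the limit were used here, since the list ends there.

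By count of regions, H3K4me1 was lower in KO mainly inside and between genes rather than at their starts. Introns held 1355 regions (48.8%, 95% Wilson interval 47.0 to 50.7%) and intergenic sequence 1010 (36.4%, 34.6 to 38.2%). Exons held 170 (6.13%), promoters 118 (4.25%), transcription ends 44, 3′ untranslated regions 35, 5′ untranslated regions 16 and non-coding exons 9. The median fold was 3.17 between genes, 2.93 in introns, 2.60 in exons and 2.51 at promoters. A fold of at least 4 was found at 26.5% of intergenic and 8.47% of promoter regions. Of the intronic regions, 506 (37.3%) lay in a first intron, 233 in a second and 616 in later ones, with median folds of 2.88, 2.99 and 2.96. In 995 of 1349 intronic regions (73.8%) the intron belonged to the gene that the authors name.

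Set against the genome, the list leaned towards genes, and most of all towards their starts (ratio to the share of bases 3.21, against 0.567 for intergenic sequence). With classes drawn anew from the mm9 gene models, 13.5% of the 2751 placed regions lay within 1 kb of a start, against 4.21% of genome bases. Exons held 6.69% of regions and 2.44% of bases, introns 47.2% and 35.8%, and intergenic sequence 32.6% and 57.5%. The share near starts thus depends on the gene models. By the authors' own distances, 221 regions (8.02%) lay within 1 kb of a start, 724 (26.3%) at 1 to 10 kb, 1043 (37.8%) at 10 to 50 kb, 386 at 50 to 100 kb and 383 beyond. The median distance was 20506 bp. The median fold rose along these steps from 2.58 to 3.43 while the median WT level fell from 40 to 29 tags, so distance and level cannot be told apart here.

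**Figure D2:**
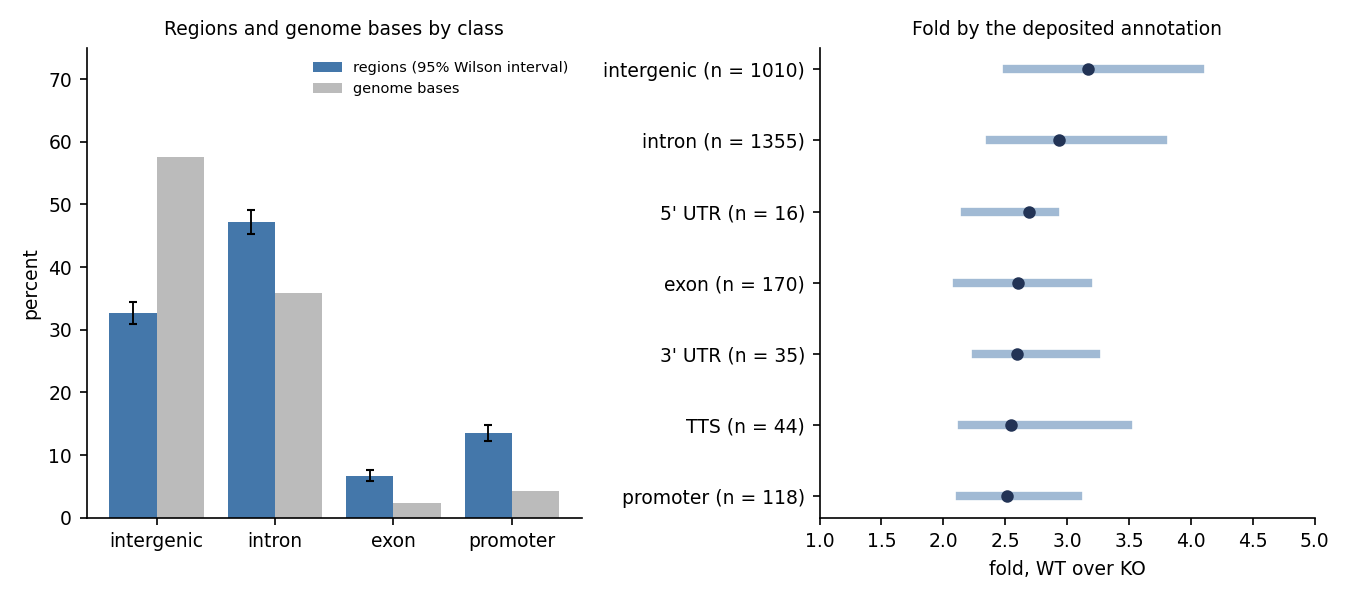
Left, percent of the 2751 placed regions (bars with 95% Wilson intervals) and percent of genome bases in each class drawn from the mm9 gene models. Right, median fold (points) and its quartiles (bars) by the deposited annotation, highest between genes (3.17) and lowest at promoters (2.51).

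The largest folds fell at sites in introns and between genes. The highest was in intron 12 of Phldb2, a membrane-associated protein that helps to anchor microtubules, although the authors name the nearest start, Abhd10. Its WT level was 31 (Poisson 95% interval 21.1 to 44.0) and its KO level 2.56 (0.529 to 7.49), a fold of 8.98. Next came a site 6936 bp from Mir6349, with 49 tags in WT (36.3 to 64.8) and 5.13 in KO (1.88 to 11.2), a fold of 8.16, where H3K27ac was also WT-higher, 5.25-fold. Both sites were chosen for their fold, so their gap between the libraries is a description.

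Ankrd44, which encodes a regulatory ankyrin subunit of a phosphatase, had 36 tags in WT and 3.78 in KO in intron 1, a fold of 7.74. Pip4k2a, a phosphoinositide kinase gene, had 32 and 3.42 in intron 1, a fold of 7.47, with H3K27ac 4.57-fold higher in WT at the same place. Further sites among the 12 highest folds had WT levels of 23 to 25 and KO levels of 2.35 or 2.56. They lay in introns of Vps13c (lipid transfer between membranes), Rasgrp3 (a Ras activator) and Serpina4-ps1, and between genes near Crygd, 2410012E07Rik and Gm27162. At Vps13c and Crygd the KO level was 2.35, the lowest in the list and close to the genome-wide KO level of 2.34. Their folds may thus not reflect local KO tags. Among the 12, only the Mir6349 and Pip4k2a sites overlapped WT-higher H3K27ac, and none overlapped WT-higher H3K9ac.

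By the caller's own q-value the leading site was in intron 3 of Thsd4, a gene of a secreted thrombospondin-repeat protein of the extracellular matrix. Its WT level was 64 (49.3 to 81.7) and its KO level 9.40 (4.69 to 16.8), a fold of 6.25 and a −log10 q of 23.2. H3K27ac and H3K9ac were also WT-higher there, 3.57-fold and 2.92-fold. Sh3glb1, which encodes endophilin B1, a membrane-curving protein of autophagy and mitochondria, had 77 tags in WT and 15.4 in KO in intron 1, a fold of 4.76. Acetylation went the other way at that site: H3K27ac was 3.32-fold higher in KO. The other leading sites by q lay near Mir6349 and Tmem181b-ps.

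Some classes with few regions had their own leaders. In an exon, the highest fold was 6.47 in exon 54 of Reln, the gene of the secreted glycoprotein reelin, named for Slc26a5, with 23 tags in WT and 2.71 in KO. At promoters it was 5.49 at Gm10619 (42 and 6.83), 422 bp before its start, and a second Gm10619 site in intron 1 had a fold of 6.79. At a transcription end it was 6.76 at Ston1 (25 and 2.85), an endocytic adaptor gene. In 5′ untranslated sequence it was 3.11 at Thbs4 (42 and 12.8), a matrix protein, and in 3′ untranslated sequence 4.90 at Mpdz (29 and 5.13), a scaffold of tight junctions. Mpdz had 5 regions in all, with folds of 3.88 to 6.57. The widest regions lay at Tmem181b-ps (1158 bp), Zfp423 (936 bp, fold 2.47), Dlk1 (798 bp, fold 3.48) and Scd3 (763 bp, fold 3.03).

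Regions also came in runs. With regions linked across gaps of up to 20 kb, 1980 stood alone, 414 came in pairs, 235 in groups of 3 to 5 and 145 (5.23%) in 14 stretches of 6 or more, limits chosen after values had been seen. The longest run held 40 regions over 95936 bp of chromosome 17 (chr17:6423540-6519475), around Dynlt1b, a dynein light chain gene, and the pseudogene Tmem181b-ps. Its median WT level was 53 and its median KO level 12.8, with folds of 2.0 to 6.83. In this stretch the lists of regions higher in WT held 24 H3K4me3, 30 H3K9ac, 23 H3K27ac, 6 H3K9me3 and 18 H3K27me3 regions, and the lists of regions higher in KO held 0 of any mark. Active and repressive marks thus differed in the same direction there. A neighbouring stretch around Tmem181a and Dynlt1a (chr17:6256634-6321872) held 10 regions with a median fold of 2.52 and likewise 0 KO-higher regions. The cause was not tested, and overlaps with other marks are also counted without the stretches.

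A run of 13 regions lay between Mki67 and C030029H02Rik on chromosome 7 (chr7:143178439-143218445), with a median WT level of 27, a median KO level of 5.98 and folds of 2.56 to 6.27. Active marks were WT-higher in it, with 14 H3K27ac, 5 H3K9ac and 1 H3K4me3 regions, and no repressive mark was listed. The non-coding gene C030029H02Rik was named for 13 regions in all, 8 of them with WT-higher H3K27ac (7.23% over all placed regions). Other runs of 6 to 9 regions lay at Serpina1a (9, a serine protease inhibitor), 0610038B21Rik (8, all in introns of Arhgap10), Mical3 (7) and Schip1 (7). Runs of 6 lay at Rbfox3, Dlk1, Tmprss6, Hs6st1, Pip4k2a and 9030025P20Rik.

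A further 17 regions lay on a sequence that the files name UGT1A, which is no mm9 chromosome. Of these, 15 formed a run with a median WT level of 232, a median KO level of 137 and a median fold of 1.65. There 11 KO-higher H3K27ac and 20 WT-higher H3K27me3 regions were listed as well. These regions carry no annotation and were left out of all counts over placed regions. Of the 2757 regions with a distance to a start, the 2751 on the chromosomes used here are the placed regions.

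**Figure D3:**
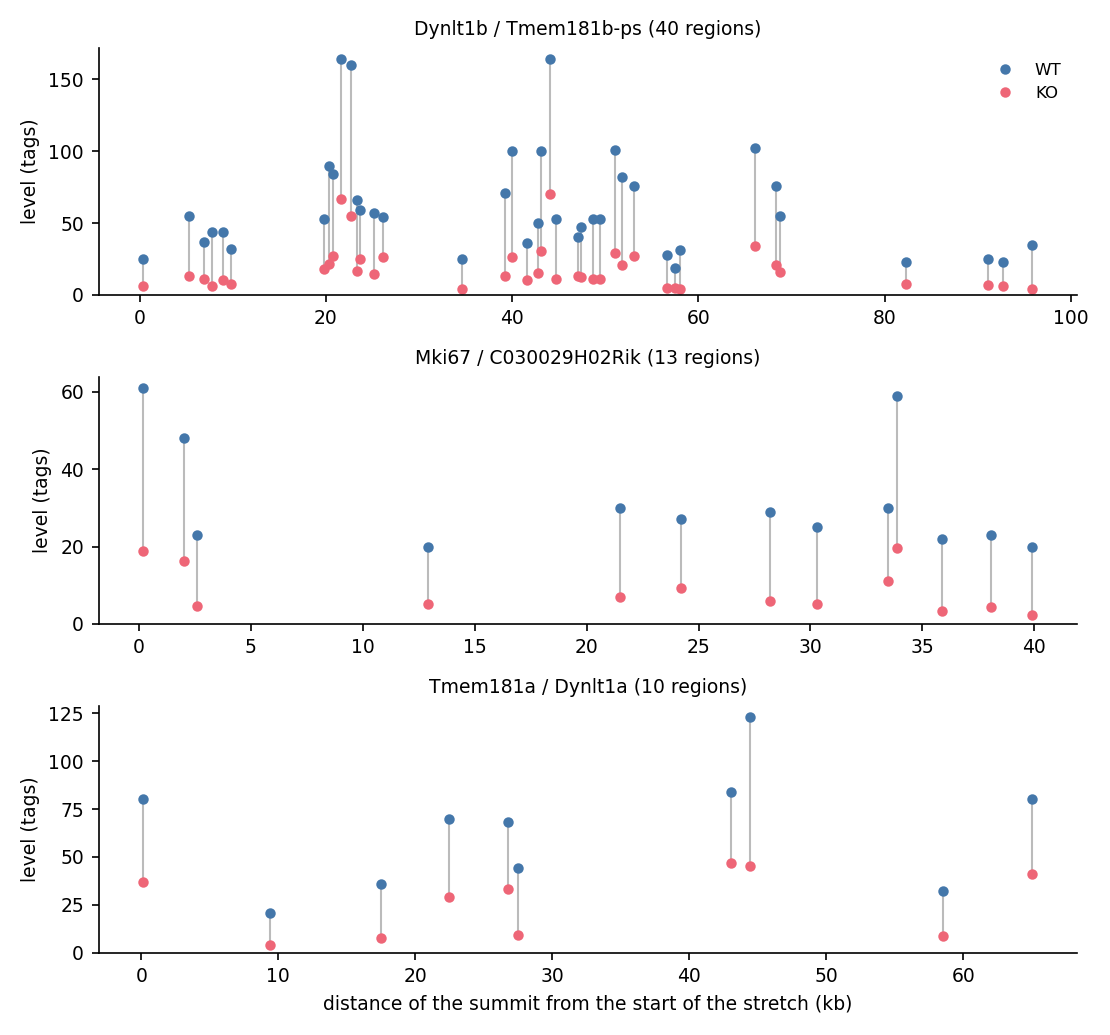
WT level (blue) and KO level (red) of each region, in tags on the y axis, against the distance of its summit from the start of the stretch in kb, for the 3 placed stretches of 10 or more regions. In each stretch every region has a lower KO level, and in the largest the KO levels reach 70.1 tags and the WT levels 164.

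Counting regions by the gene that the authors name gave a further view of where the mark was lower. Tmem181b-ps had 34 regions. Rbfox3, the gene of the neuronal splicing factor NeuN, had 15 over 187392 bp, with WT levels around a median of 31, KO levels around 9.40 and folds of 2.06 to 4.88. Myt1l, which encodes a neuronal zinc finger factor, was named for 11 regions, all 179055 to 349965 bp from its start, with a median WT level of 26 and KO level of 8.54. H3K27ac was WT-higher at 5 of these 11, against 7.23% of all placed regions. The Myt1l and Rbfox3 names follow from the nearest start and say nothing of expression.

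Thsd4 had 9 regions over 284177 bp, with a median WT level of 46, a median KO level of 14.5 and 5 with WT-higher H3K27ac. Hs6st1, a heparan sulfate sulfotransferase gene, was named for 8 regions, all at least 209873 bp from its start, with a median of 23 tags in WT and 4.70 in KO. Kcnh1, a potassium channel gene, had 8 regions in its introns with folds of 2.48 to 4.86 and none with WT-higher H3K27ac. Fyn, a Src family kinase gene, also had 8 (median 31 and 8.59), 1 of them with WT-higher H3K27ac. Serpina1a had 9, with folds of 1.93 to 5.96. Over all placed regions 7.23% overlapped WT-higher H3K27ac. The counts at Kcnh1 and Fyn were too few to set apart from that share.

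Of 21117 protein-coding genes, 1768 (8.37%) were named for at least 1 region: 1439 had 1, 218 had 2 and 111 had 3 or more. Long genes were named more often. The share was 4.46% of genes of up to 5912 bp, 6.52% up to 17331 bp, 8.27% up to 45243 bp and 16.1% beyond, and the median length was 39304 bp for genes with a region and 17331 bp for all. The 739 genes of the 22 functional lists described next had 121 members with a region (16.4%), and many of these lists hold long genes. Their shares are descriptions, and length was not adjusted for. A gene was named for regions at any distance, so a region can lie inside another gene. Within 50 kb of a start 87 list genes (11.8%) had a region, against 6.62% of all protein-coding genes. With overlap of the gene body it was 82 (11.1%), against 5.96% of all, so the share over all genes fell as well. By gene body the count fell from 9 to 4 in the TGF-β, BMP and hedgehog list, from 7 to 4 in the Wnt and the fatty acid lists, from 7 to 2 for inflammation and from 6 to 3 for vesicle traffic. It fell from 5 to 3 for H3K4 methylation enzymes, from 3 to 1 for the corepressor complexes and from 2 to 0 for enterocyte transcription factors, and rose from 3 to 5 for proliferation and from 1 to 2 for circadian genes.

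**Figure D4:**
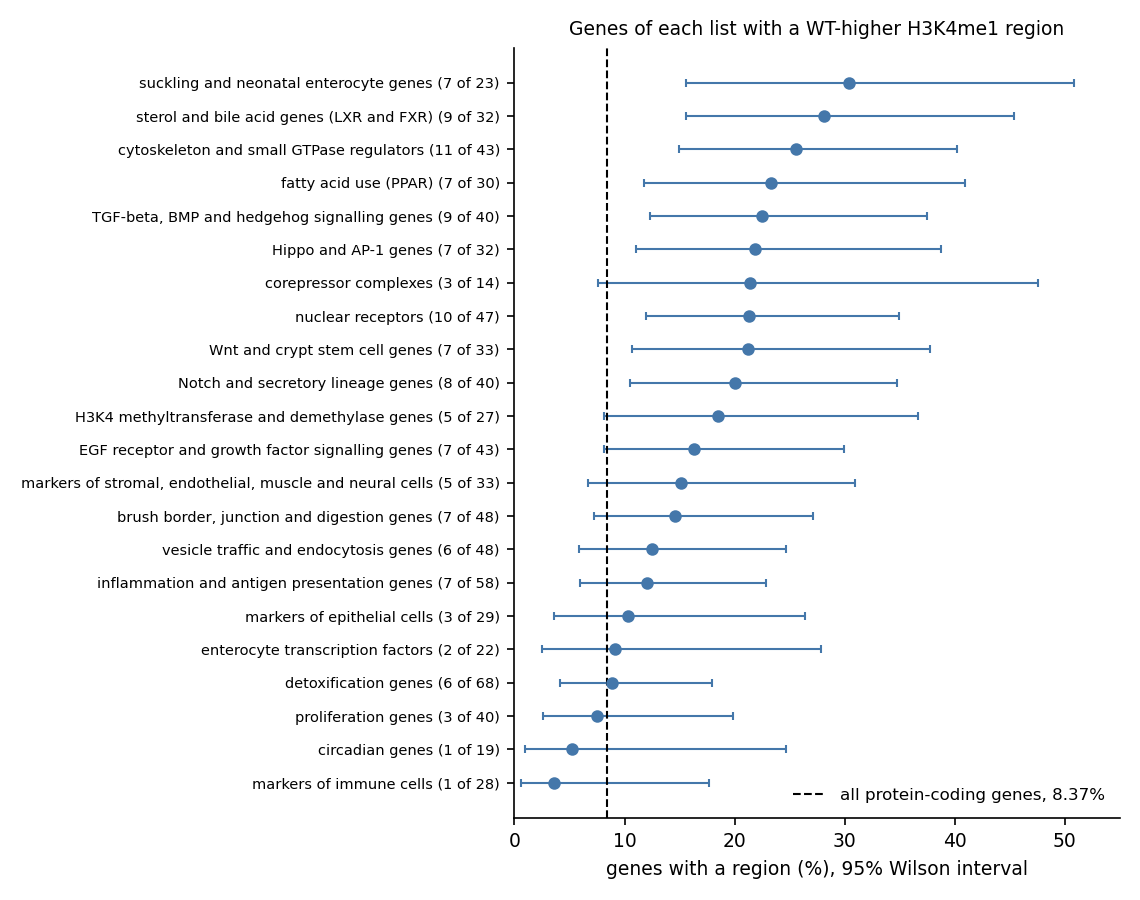
Percent of the genes of each list that were named for at least 1 region (points, 95% Wilson intervals), with the share over all protein-coding genes, 8.37%, as a dashed line. Suckling and sterol genes have the highest shares (30.4 and 28.1%) and immune markers the lowest (3.57%).

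Sterol and bile acid genes, targets of the oxysterol receptor LXR and the bile acid receptor FXR, had 9 of 32 members named (28.1%, 95% interval 15.6 to 45.4%). Their median length was 21970 bp. Scd1, which encodes a stearoyl-CoA desaturase, had a region 18998 bp from its start with 44 tags in WT and 13.7 in KO, a fold of 3.07. Scd2 had 2 regions (40 and 13.1, 34 and 13.3 tags), and Scd3, outside the list, had 2 (59 and 18.8, 28 and 9.22). All 5 regions of the Scd cluster also overlapped regions where H3K27ac was higher in KO, 3.41-fold to 6.48-fold. Abca1, the cholesterol exporter, chosen after its values were seen, had 2 regions in intron 1 (47 and 17.9, 51 and 19.6 tags). Both overlapped KO-higher H3K27ac (4.5-fold) and H3K9ac (6.67-fold). H3K4me1 was thus lower in KO at these sites while acetylation was higher.

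In all, 6 of the 11 regions of the sterol list overlapped KO-higher H3K27ac, at Abca1, Abcg5, Scd1 and Scd2, and 0 overlapped WT-higher H3K27ac. Over all placed regions 2.73% overlapped KO-higher H3K27ac, and 4.83% of regions 1 to 10 kb from a start did. The sterol list was chosen with earlier results of these data known, so its count is a description. The members without KO-higher H3K27ac were Pltp, a phospholipid transfer protein gene (16 tags in WT and 3.42 in KO), Slc51a, a bile acid exporter (48 and 16.4), Lpcat3, Scarb1 and Abcg8. Abcg8 and Abcg5 encode the partners that form the sterol exporter of enterocytes, and their folds were 1.63 and 2.82.

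Of 30 genes of fatty acid use under PPAR control, 7 had a region (23.3%). The highest fold was at Acadl, a mitochondrial acyl-CoA dehydrogenase gene, with 20 tags in WT and 2.35 in KO, a fold of 6.27, 17624 bp before its start. Ppargc1a, the coactivator PGC-1α, had 25 and 5.13 (fold 4.24), but 453537 bp from its start. Plin2, a lipid droplet coat protein, had 31 and 8.54 at 2322 bp before its start, and Acadm 29 and 9.40 in an intron. None of the 7 regions overlapped KO-higher H3K27ac (2.73% over all regions), and 1, at Acadm, overlapped WT-higher H3K27ac (7.23%), counts near those shares.

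Suckling and neonatal enterocyte genes had 7 of 23 members named (30.4%, 15.6 to 50.9%), and their median length was 43563 bp. Amn, which encodes amnionless, the partner of cubilin in endocytic uptake, was named for a region in an intron of Traf3, 19702 bp before its own start. The region had 35 tags in WT and 6.10 in KO, a fold of 5.07. WT-higher H3K27ac overlapped it. Nox4, an NADPH oxidase gene, had 24 and 4.27 (fold 4.74), Ctsl, a lysosomal protease gene, 37 and 7.86 (4.29), and Cps1, the entry enzyme of the urea cycle, 45 and 12.8 (3.33). Maf, a transcription factor gene of the neonatal enterocyte programme, had 3 regions with folds of 2.12 to 2.54, all at least 48173 bp from its start. Of the 23 genes, 1 had a region overlapping its body, so most of these names rest on sites outside the gene.

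Of 22 transcription factors of enterocytes, 2 were named (9.09%, near the 8.37% of all genes), Maf among them, and Hnf4a and Hnf4g were not. Brush border, junction and digestion genes had 7 of 48 named (14.6%, against 8.37% of all protein-coding genes). Mttp, the microsomal triglyceride transfer protein needed for chylomicrons, had 48 tags in WT and 13.7 in KO (fold 3.34), and Krt20, a keratin of mature enterocytes, had 51 and 17.9 in an exon (2.75). Eps8, an actin capping protein of microvilli, had 107 and 46.1. Of the 8 regions of this list, 4 overlapped KO-higher H3K27ac, at Eps8, Ezr, Krt20 and Mttp. The share was 2.73% of all placed regions and 4.83% of regions 1 to 10 kb from a start. This list was chosen with earlier results of these data known, so its count is a description.

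Signalling genes of the crypt and villus were named at shares of 16.3 to 22.5%. In the Wnt list 7 of 33 genes had a region, led by Wnt5a (29 tags in WT and 5.13 in KO, fold 4.90), whose region lay 266856 bp from its start. Nkd1, a Wnt inhibitor, had 22 and 5.98 in an intron (3.30), and Ephb2, a Wnt target that positions crypt cells, 35 and 12.1 (2.76). Fzd5, a Wnt receptor, was named for a region in Plekhm3, 80146 bp from its own start, with 40 and 12 (3.16). None of the 10 Wnt regions overlapped H3K27ac regions of either direction, too few regions to set apart from the 7.23 and 2.73% over all regions. In the Notch and secretory list 8 of 40 had a region: Hey1, a Notch target, 18 and 2.35 (fold 5.67), Dclk1, a tuft cell kinase, 17 and 3.39 (4.10), Muc2, the goblet cell mucin, 20 and 4.74 (3.66), and Cck, an enteroendocrine hormone, 32 and 10.3 (2.93).

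In the TGF-β, BMP and hedgehog list 9 of 40 genes were named. Smad5, which carries BMP signals, had 48 tags in WT and 9.87 in KO in an intron, a fold of 4.51. Smurf2, a ubiquitin ligase that limits TGF-β receptors, had a promoter region, 975 bp before its start, with 42 and 10.3 (fold 3.82). Inhbb, an activin subunit gene, followed with 32 and 8.67, and Acvr2a, an activin receptor gene, with 24 and 8.54 at 270953 bp.

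The EGF and growth factor list had 7 of 43 named. They included Dusp6, the ERK phosphatase induced by growth factors (50 and 12.1, fold 3.9), Tgfa (44 and 17.1), Efna1 (55 and 22.2) and Errfi1, an EGF receptor inhibitor (54 and 22.2). The Hippo and AP-1 list had 7 of 32. Vgll4, a TEAD antagonist, had 3 regions with folds up to 3.45, Fos a region in an exon (46 and 14.5, fold 3.03) under KO-higher H3K27ac and H3K9ac, Tead1 27 and 9.40, and Jun 49 and 17.9 at 140494 bp. Cytoskeleton and small GTPase genes had 11 of 43, but their median length was 125074 bp. Arhgap24, which switches off Rac, had 26 and 3.1 (fold 6.56), Myh10, a non-muscle myosin, 24 and 2.98 (6.28), and Dock4, a Rac activator, 39 and 7.69 (4.60).

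Among the genes of NCoR1's own machinery, 3 of 14 members of the corepressor complexes were named (21.4%, 7.57 to 47.6%). The share over all protein-coding genes was 8.37%. Hdac4 had 50 and 18.8 tags (fold 2.58) in an intron. The demethylase gene Kdm1a (90 and 45.3, 1.97) was named for a region in Luzp1, 53614 bp from its own start. Ncor1 was not named. H3K4 methyltransferase and demethylase genes had 5 of 27 (18.5%, 8.18 to 36.7%). Wdr5, a shared subunit of the methyltransferase complexes, had 30 and 5.98 (fold 4.44) at 12185 bp. Smyd2 had 52 and 15.4 (3.24) at 114381 bp. Rbbp5, another shared subunit, had 67 and 20.5 (3.16) in an intron, 871 bp from its start.

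Of 47 nuclear receptor genes, 10 were named (21.3%). Rora had 28 tags in WT and 5.98 in KO (fold 4.15), Nr2c2 22 and 4.61 (4.10), the stress-induced receptor gene Nr4a3 54 and 17.9 (2.90) in an exon, and the thyroid hormone receptor gene Thrb 28 and 9.40 (2.79). None of the 11 regions of this list overlapped H3K27ac regions of either direction, where over all regions 7.23% overlapped WT-higher and 2.73% KO-higher ones, so nothing is read from it. Detoxification genes were named at 6 of 68 (8.82%), near the 8.37% of all genes. The highest fold there was at Gclm, a subunit of glutathione synthesis, with 41 and 8.58 (4.38). Vesicle traffic genes had 6 of 48 (12.5%), with Snx29 at 21 and 3.42 (4.98) and Rab11a, a recycling endosome GTPase, named for 5 regions with folds up to 3.33, all inside Megf11 and at least 157306 bp from its start.

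Inflammation and antigen presentation genes had 7 of 58 (12.1%). Irf8 led with 17 and 3.1 (fold 4.37), 146504 bp from its start. Ciita, the master regulator of MHC class II genes, had 32 and 6.83 (4.21). Proliferation genes had 3 of 40 (7.50%) and circadian genes 1 of 19, Rora. Markers of other cells in the preparation were also counted. Immune cell markers had 1 of 28 named (3.57%), Runx3 with 39 and 17.9. Markers of stromal, endothelial, muscle and neural cells had 5 of 33 (15.2%): Col6a1, Prox1, Kdr, Foxl1 and Cdh5. Of these, 2 had a region within 50 kb of the start. The mm9 gene models gave 0 with a region overlapping the gene body, but only 32 of the 33 were matched to a model. By the deposited annotation the Foxl1 region lay in an exon of Foxl1, 332 bp from its start. Epithelial markers had 3 of 29 (10.3%), Mttp, Krt20 and Slc15a1. The part of other cell types in the regions was not tested.

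Most regions were listed for H3K4me1 alone. Of the 2751 placed regions, 2383 (86.6%, 85.3 to 87.8%) overlapped no region of another list by even 1 bp. Another 285 (10.4%) overlapped WT-higher regions of other marks only, 79 (2.87%) KO-higher ones only and 4 both. WT-higher H3K27ac was the most frequent partner, at 199 regions (7.23%, 6.32 to 8.26%), which were shared by 195 of the 2506 regions of that list (7.78%). H3K9ac was WT-higher at 75 (2.73%) and H3K4me3 at 60 (2.18%). KO-higher H3K27ac overlapped 75 regions (2.73%), or 1.06% of the 7094 of its list, and KO-higher H3K9ac 36.

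The partners differed in level. Regions with no partner had a median WT level of 34, those with WT-higher partners 48 and those with KO-higher partners 70, and their median folds were 3.02, 2.74 and 2.37. The share with WT-higher H3K27ac rose from 2.39% to 12.4% from WT levels of 10 to 24 to those of 54 to 279. Those with KO-higher partners also lay closer to starts, at a median of 5456 bp against 21163 bp for regions with no partner. Of the 199 overlaps with WT-higher H3K27ac, 47 lay in stretches of 6 or more regions, and without these stretches the share was 5.80%. For WT-higher H3K9ac 27 of the 75 lay there, which left 48 (1.83%), and for WT-higher H3K4me3 19 of the 60, which left 41 (1.56%). Of 11 overlaps with WT-higher H3K27me3, 10 lay in the stretches. None of the 75 overlaps with KO-higher H3K27ac did.

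Opposite changes of H3K4me1 and acetylation were found at named genes of several kinds, chosen by their H3K27ac fold after values had been seen. Beside the Scd cluster and Abca1, Lmo7, a junction-associated protein gene, had 54 tags of H3K4me1 in WT and 12 in KO (fold 4.24) under KO-higher H3K27ac (3.71-fold). Fth1, the ferritin heavy chain, had 70 and 16.2 (4.12) at 4274 bp before its start, with H3K27ac 3.45-fold higher in KO. Muc13, a membrane mucin of enterocytes, had 40 and 15.4 in an exon, with 3.41-fold. The 7 regions where H3K4me3, H3K9ac and H3K27ac were all WT-higher included 5 in stretches. The other 2 were near C030029H02Rik (38 and 9.40, fold 3.75) and in Brinp3 (60 and 22.2, 2.63).

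The regions were rich in G and C. Their median GC content was 56.1%, against 47.3% in windows 1 kb away and 41.8% of genome bases. It was 55.6% between genes, 55.8% in introns and 59.0% in exons and promoters. Medians of the other lists ran from 53.5% (KO-higher H3K9me3) to 64.6% (WT-higher H3K4me3). The X chromosome held 26 regions, 0.156 per Mb, against 1.14 per Mb on the autosomes. The KO-higher H3K27ac list likewise had 0.324 against 2.96, whereas WT-higher H3K9me3 had 0.468 on the X and 0.201 elsewhere. What sets these densities was not tested.

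Of 18 motifs searched in the 200 bases around the 2751 summits, on both strands, 10 were found more often than in either flank 1 kb away. The highest ratio to the flanks was that of the ETS letters ACCGGAAG, at only 13 summits (0.473%, 0.276 to 0.807%) against 0.182 and 0.291% of flanks. The most frequent were the ETS core letters AGGAAG, in 26.8% of summits and 23.9 to 26.0% of flanks. By ratio to the flanks the next were GC-rich: the KLF letters GGGNGTG were in 23.0% of summits (21.4 to 24.6%) and 14.1 to 14.3% of flanks, the E-box letters CAGGTG in 26.2% against 15.9 to 17%, and the CTCF core letters AGGGGGC in 5.38% against 2.94 to 3.24%. These 3 are rich in G and C, as the summits are. HNF4, the nuclear receptor that drives enterocyte genes, has the letters CAAAGTCC, which were in 50 summits (1.82%, 1.38 to 2.39%) against 1.24 and 1.31% of flanks. In the summits of the other 9 lists they were in 0 to 0.885%. The relaxed form CAAAGNNCA, which contains part of the same matches, was in 6.36% against 4.80 to 5.42%, and the nuclear receptor letters AGGTCA in 14.8% against 11.4 to 12.5%.

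AT-rich motifs were less frequent at summits than in flanks. The GATA letters AGATAA were in 5.63% of summits against 9.60 to 9.92%, and the CDX letters TTTATNG in 4.43% against 8.54 to 8.65%. Within the 591 regions of fold at least 4 that were placed, HNF4 letters were in 2.71% and AP-1 letters TGANTCA in 7.78%, against 1.82 and 6.03% of all. A match is a stretch of letters, and binding was not measured.

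**Figure D5:**
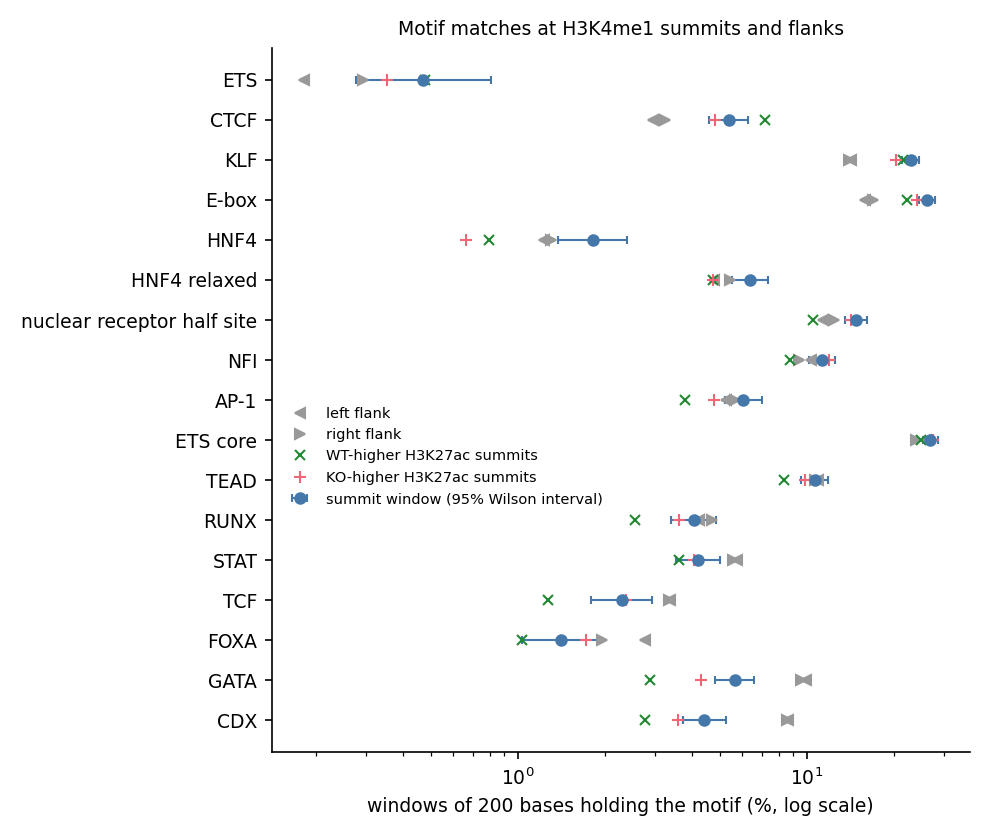
Percent of 200-base windows holding each motif shown (x axis, log scale) at H3K4me1 summits (blue, 95% Wilson intervals), in the left and right flank 1 kb away (grey), and at the summits of the WT-higher and KO-higher H3K27ac lists (green and red crosses). CTCF, KLF, E-box and HNF4 lie to the right of both flanks, and GATA and CDX to the left.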

How the data were processed

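Both H3K4me1 libraries were read for 50 cycles from one end, and tags were mapped to mm9, per the labels' protocols. Per the submitters' processing notes, the tools included HOMER 3.12, MACS2 2.1.1, Bowtie2 2.2.9 and CASAVA 1.8.2, with no role named. The file headers give another MACS version, 2.0.10.20130419, and 75 bp tags. Per the file headers, the authors gave the caller the other genotype's library as control, with a q-value cutoff of 0.05 and 1 tag per position, so each list holds differences between 2 libraries. The deposited pileup is a signal in tags, and the deposited fold is a ratio. The authors also gave −log10 of p-value and q-value. The distance to the nearest start and the class come from the deposited HOMER annotation. A table beside the list holds 12 per-library columns of another assay that were not used.

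The KO level was computed back from the fold, and the p-value recomputed from it differed from the deposited −log10 p by at most 0.000124. The value is the highest of several averages in the KO library, and its lowest, 2.35, was close to the genome-wide level of 2.34. In 2232 regions (80.5%) it was a whole number of scaled tags to within 0.01. Each region kept its deposited nearest gene at any distance, and classes were also drawn from GENCODE gene models of mm9. Gene names were matched by Entrez ID to RefSeq (GRCm38.p6, names only). Regions on chromosome 18 were not analysed here, and the background holds genes of the other autosomes and X. Of the list entries 28 had no match. Overlap meant at least 1 shared bp. Overlap, stretch and motif counts were tested on simulated data. Shares have 95% Wilson intervals and levels of leading regions exact Poisson intervals, for counting error only. No p-value was computed, since there was 1 library per genotype.

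The regions, lists and motifs were chosen with earlier results of these data known. Genes named are Ncor1, those of the 12 highest folds, 5 highest q and 5 widest regions, the 12 with most regions, the leader of each class, the 2 lowest by q and by fold, and up to 4 of highest fold per list. Some of these are not reported here. Others were chosen after their values were seen. Sequences shown follow the highest fold per class. Alternatives were stricter limits, merging, other gene assignments and leaving out dense stretches. Python 3 with pandas, numpy and scipy was used.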

Additional observations from a re-analysis of the deposited data

How the results depend on the processing

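No setting reversed the direction, which the list fixes. Limits of −log10 q of at least 5 and of fold of at least 4 left 1199 and 591 of 2774 regions. Under them the intergenic share was 39.2 and 45.3% (main 36.4%), the exon share 3.84 and 3.55% (6.13%) and the promoter share 3.25 and 1.69% (4.25%). With classes from the mm9 gene models, intergenic was 32.6% and promoter 13.5%. At the stricter q the median folds were 3.57 in introns, 3.78 between genes, 3.14 in exons and 3.29 at promoters, 5.83% of regions lay within 1 kb of a start, 818 genes had a region, and 56 of 121 list genes stayed, against 21 at the stricter fold. The share near a start was 15.2% with a limit of 2.5 kb and 13.5% with the mm9 gene models. Genes with 3 or more regions numbered 56 rather than 111 within 50 kb of the start. The share overlapping any other list, 13.4%, was 11.9% at 50% overlap, 18.5% with summits within 1 kb, 10.1% at the stricter q in both lists and 11.6% without the stretches of 6 or more regions and unplaced sequences, an alternative added after seeing the data. The other 32 results over all regions stayed within their limits, as did 133 of 222 for single lists, marks or motifs. Stricter limits left fewer regions, and wider limits of distance and wider windows counted more of the same ones. By median −log10 q over all regions the classes kept the same order as by fold. Among regions passing the stricter q, the median fold at promoters (39 regions) was above that in exons (46 regions), the reverse of the main order. No paired analysis was possible because each genotype had 1 library. Depth limits sites of low level: below a WT level of 10 tags none was listed.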
